A study of Talpa occidentalis with 2 samples.

Results

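The SLC25 genes encode the mitochondrial carriers, the proteins that move metabolites, nucleotides and cofactors across the inner mitochondrial membrane. They were read from the gene annotation deposited for talOcc3, a genome build of the Iberian mole, Talpa occidentalis. A gene model counted as a member when its name, without a copy or low-confidence suffix, was SLC25A followed only by digits. The rule took 51 of the 23336 deposited gene models, which carried 44 of the 16075 distinct gene symbols. The series itself holds 2 libraries of 4C-seq, an assay that reads which genomic fragments lie near a chosen viewpoint. 1 library came from forebrain and 1 from hindlimb of wild-type embryos at embryonic day 15, both with the FGF9 transcription start as viewpoint. The annotation has no column for either library, 4C contacts and their sequencing depth were not analysed here, and no tissue comparison was made. The values below therefore describe 1 assembled genome without replicates, so no p-value is given and the main counts of members stand beside the same share over all models or symbols.

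A mitochondrial carrier is built from a repeated unit, present in triplicate along the protein, each contributing a pair of membrane helices. The carrier alternates between a state open to the intermembrane space and a state open to the matrix, and exchanges or admits its substrate in doing so. The ADP/ATP and phosphate carriers supply the ATP synthase, the aspartate/glutamate and oxoglutarate carriers pass reducing equivalents inward, and the ornithine carrier is part of the urea cycle. A few members work elsewhere, such as SLC25A17 in peroxisomes and SLC25A46 in the outer mitochondrial membrane.

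Most members were present as 1 gene model with introns. Of the 44 symbols, 38 had 1 model, 5 had 2 and 1, the phosphate carrier SLC25A3, had 3. At least 2 models were thus held by 6 symbols (13.6%), against 14.6% of all symbols in the annotation. Single-exon models numbered 6 of 51 (11.8%, Wilson 95% interval 5.51 to 23.4%, which covers counting error only), against 24.7% of all models and 19.4% of models with a symbol. Among 294 symbols of other solute carrier families, 12.6% had at least 2 models, and 4.40% of their 341 models had 1 coding exon. The SLC25 models lay on 26 scaffolds, and all 51 lay on scaffolds whose annotation reached at least 1 Mb, against 87.5% of all models. The gene model combiner EVM made 41 of them (80.4%, against 64.2% of all models), the aligner exonerate 6 (11.8%, against 25.5%) and a source named ALN 4 (7.84%, against 10.3%). The low-confidence suffix was carried by 0 of 51 members and by 12 of all 23336 models.

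The median coding length of the carrier genes was below that of all symbols, and their spans covered a wide range. For each symbol the model with the highest deposited score was taken as the best one, and its coding length had a median of 984 bases (95% order-statistic interval 915 to 1086), against 1311 over all symbols. This interval, like that of the span below, treats symbols as independent draws and is no test against other symbols. The other solute carrier families had a median of 1655 bases. The 41 symbols with a model of several exons had a median of 7 coding exons and a median span of 13.4 kb (interval 4.99 to 18.7 kb), against 8 exons and 15.4 kb over all symbols. Their spans ran from 1.22 kb in SLC25A29 to 143 kb in SLC25A13. Of these, 14 spanned less than 5 kb (34.1%, against 19.9% of all symbols with such a model) and 3 more than 100 kb (7.32%, against 7.77%). Short models, such as that of SLC25A52 with 289 coding bases in 1.31 kb, were counted in these shares.

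**Figure D1:**
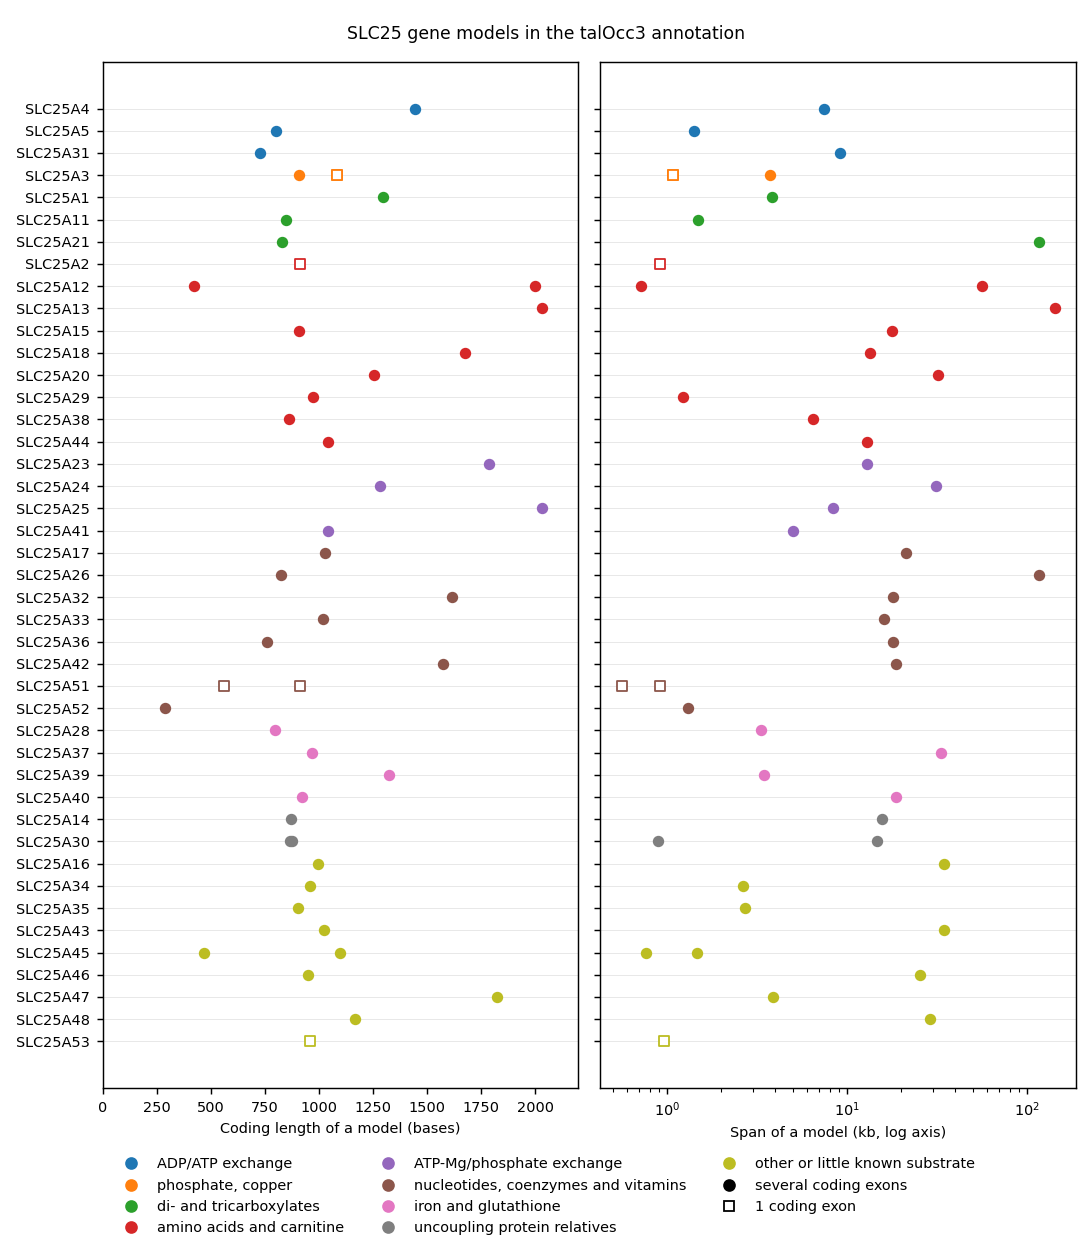
Coding length in bases (left) and span in kb on a log axis (right) of 49 of the 51 SLC25 models, 1 row per symbol and coloured by substrate group, with filled circles for models of several coding exons and open squares for models of 1. Spans run from 0.563 to 143 kb, coding lengths from 289 to 2031 bases, and the 2 open squares of SLC25A3 coincide at 1086 bases.

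The ADP/ATP carriers export ATP from mitochondria in exchange for ADP, and 3 of 4 listed human symbols had a model. SLC25A4, the isoform of heart and muscle, lay on scaffold 13 at 45267632 to 45275121 with 1446 coding bases in 5 exons. SLC25A5, the isoform of dividing cells, lay on scaffold 45 at 251226 to 252639 with 3 coding exons and 801 coding bases. SLC25A31, known from the male germ line, had 6 coding exons and 729 coding bases over 9.15 kb on scaffold 1. SLC25A5 and SLC25A31 had 1 model each, as did SLC25A4, so this annotation held 0 further copies of the ADP/ATP carriers under these names.

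The carboxylate carriers link the citric acid cycle to the cytosol. SLC25A1, the citrate carrier, had 9 coding exons in 3.84 kb on scaffold 17, and SLC25A11, the oxoglutarate and malate carrier, had 7 in 1.48 kb on scaffold 25. SLC25A21, the oxodicarboxylate carrier, had 830 coding bases in 8 exons but spanned 117 kb on scaffold 6, and 1 intron of 70.0 kb made up 59.7% of that span. These 3 genes thus held 830 to 1296 coding bases in spans that ran from 1.48 to 117 kb.

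Among the amino acid and carnitine carriers, 9 of 10 listed symbols had a model. The aspartate/glutamate carriers SLC25A12 and SLC25A13, which carry calcium-binding EF-hands before the carrier domain, had the most exons of the family. SLC25A13 had 18 coding exons and 2031 coding bases on scaffold 16 at 50521044 to 50663729, and SLC25A12 had 17 and 1997 on scaffold 1 at 47450993 to 47507535. SLC25A15, the ornithine carrier of the urea cycle, had 6 coding exons and 906 bases, and SLC25A20, the carnitine and acylcarnitine carrier, had 10 and 1257. SLC25A38, a glycine carrier needed for haem synthesis, had 6 coding exons in 6.51 kb, and SLC25A44, a carrier of branched-chain amino acids, had 3 in 12.9 kb. SLC25A29, a carrier of basic amino acids, had the shortest span among best models with introns, with 2 coding exons of 228 and 744 bases. SLC25A18, a glutamate carrier, had 11 coding exons and 1677 bases.

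The ATP-Mg/phosphate carriers adjust the adenine nucleotide pool of the matrix, and all 4 listed symbols had 1 model each. SLC25A23, SLC25A24 and SLC25A25, whose proteins carry EF-hands, held 1785, 1284 and 2031 coding bases. SLC25A41, the member known to lack EF-hands, held 1041. Their spans were 12.9, 31.2, 8.36 and 4.99 kb in the same order. The stretches of coding sequence matched to the target transcript given with each model, described below, were 1247, 1283, 1290 and 1038 bases. Outside the match lay 538 coding bases of SLC25A23 and 741 of SLC25A25, so the coding lengths do not measure the EF-hand part.

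Carriers of nucleotides, coenzymes and vitamins all had a model, 9 of 9 symbols. SLC25A26, which imports S-adenosylmethionine, was the other long and sparse gene, with 825 coding bases in 9 exons over 116 kb and a largest intron of 58.7 kb. SLC25A33 and SLC25A36, carriers of pyrimidine nucleotides, spanned 16.1 and 18.1 kb. SLC25A17, the peroxisomal carrier, had 9 coding exons and 1029 bases, SLC25A32, a folate and FAD carrier, had 9 and 1617, and SLC25A42, a coenzyme A carrier, had 10 and 1575. SLC25A51 and SLC25A52, carriers of NAD, are described with the copies below.

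In the iron and glutathione group, SLC25A37 and SLC25A28 are the mitoferrins, which bring iron in for haem and iron-sulphur clusters. SLC25A37 had 4 coding exons and 969 bases over 33.1 kb, of which 1 intron of 28.3 kb made up 85.5%. SLC25A28 had 3 coding exons and 798 bases over 3.32 kb. The span of SLC25A37 was 9.98 times that of SLC25A28, while its coding length was 1.21 times as long. The SLC25A37 model had an exon of 162 bases before those of 229, 57 and 521, while SLC25A28 began with 223, 57 and 518. Whether the SLC25A28 model lacks a first exon was not tested, so the ratios describe the models as deposited. SLC25A39 and SLC25A40, linked to glutathione import, held 1326 and 921 coding bases in 12 and 10 exons.

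The uncoupling protein relatives SLC25A14 and SLC25A30 had 873 and 876 coding bases in 9 exons each. Among carriers whose substrate is little known or of other kinds, SLC25A16 had 9 coding exons over 34.7 kb, SLC25A43 had 5 over 34.7 kb and SLC25A46 had 9 over 25.4 kb. SLC25A34 and SLC25A35 had 5 each in 2.65 and 2.71 kb. SLC25A47, known from liver, had 8 in 3.90 kb, and SLC25A48 had 6 in 29.0 kb. SLC25A53 had 960 coding bases in 1 exon on scaffold 32.

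Several related carriers had the same exon lengths, in spans of similar size in some pairs and of different size in others. For the symbols with a model of at least 3 coding exons, every pair was searched for runs of at least 3 successive coding exons of equal length. Such a run was found in 10 of 780 SLC25 pairs (1.28%), which involved 14 of the 40 members, against 0.00641% of all pairs of symbols in the annotation. The latter share counts pairs of any symbols, related or not, and no test was made. The run was searched with the exact length, so a difference of 1 codon ends it.

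The longest run belonged to SLC25A23 and SLC25A24, whose exons 2 to 9 measured 127, 88, 112, 159, 153, 108, 168 and 151 bases in both, 1066 bases in all. SLC25A12 and SLC25A13 shared 7 successive exons of 143, 116, 140, 147, 139, 94 and 85 bases, which were exons 2 to 8 of SLC25A12 and 3 to 9 of SLC25A13. Over their whole length, 14 exons were equal in the same order, although SLC25A13 spanned 2.52 times as much of the genome. SLC25A14 and SLC25A30 shared their first 6 exons of 64, 148, 95, 86, 96 and 125 bases, then differed by 1 codon, 136 against 139 bases, and were equal again in the last 2. Their spans differed by a factor of 1.07. SLC25A39 and SLC25A40 shared 6 exons of 68, 125, 174, 110, 82 and 81 bases, and SLC25A40 spanned 5.44 times as much as SLC25A39.

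The other runs were of 3 exons. SLC25A34 and SLC25A35 shared exons 2 to 4 of 66, 153 and 135 bases, and their spans differed by a factor of 1.02. SLC25A33 and SLC25A36 shared exons of 78, 101 and 67 bases, and SLC25A46 had the first 2 of these lengths in succession. The spans of SLC25A33 and SLC25A36 differed by a factor of 1.13. SLC25A25 shared exons of 108, 168 and 151 bases with SLC25A23 and SLC25A24, and SLC25A41 shared 153, 108 and 168 with the same genes. Between SLC25A25 and SLC25A41 the run was 108 and 168. Other related carriers did not show a run in these models: SLC25A4 and SLC25A5 had 1 equal exon length, 141 bases, and the mitoferrins had 1, 57 bases. SLC25A5 and SLC25A28 had 3 coding exons each, so a run of 3 there required all of them to be equal in length. In SLC25A4, 326 of 1446 coding bases lay outside the match to its target transcript, and in SLC25A5 15 of 801. Whether the SLC25A4, SLC25A5 and SLC25A28 models hold every exon of their genes was not tested. The exons on either side of the 57 bases measured 229 and 521 bases in SLC25A37, against 223 and 518 in SLC25A28. With symbols outside the family, runs of 3 were found in 4 pairs, of SLC25A21 with NET1 and PHF20L1, of SLC25A20 with PIK3C2A and of SLC25A1 with XYLB. Over the whole annotation 6124 of 95516931 pairs shared such a run, and whether the genes of these 4 pairs are related was not tested.

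**Figure D2:**
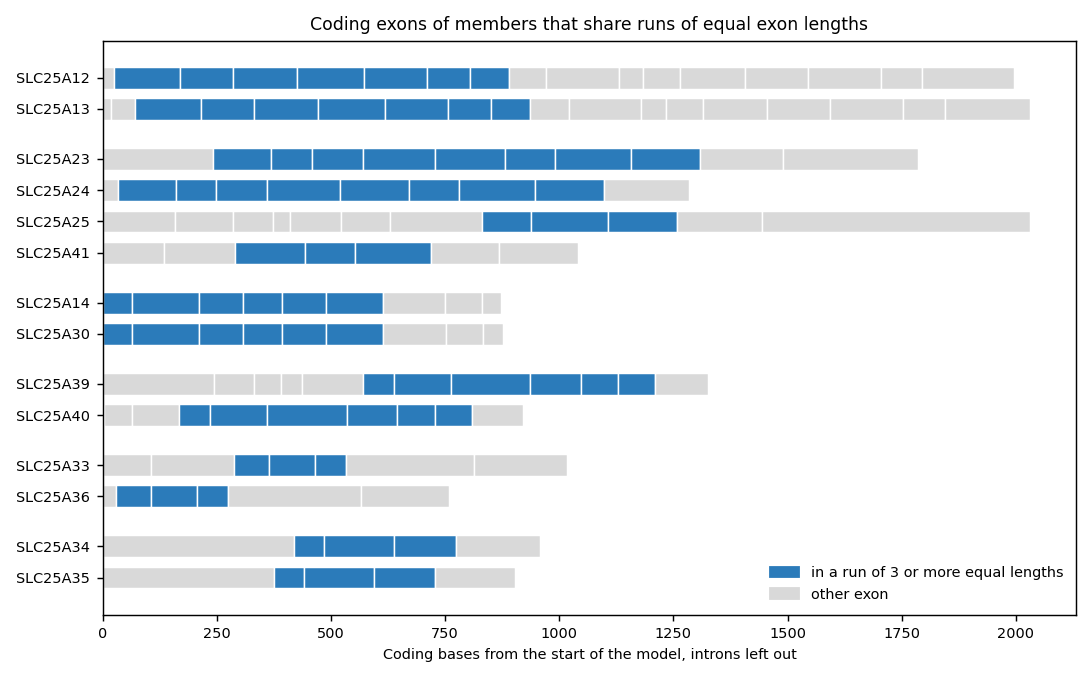
Coding exons of 14 SLC25 models drawn to scale in coding bases from the start of each model, introns left out, with exons in a run of at least 3 equal lengths in blue and others in grey. SLC25A23 and SLC25A24 share 8 successive exons, SLC25A12 and SLC25A13 share 7, and the first 6 exons of SLC25A14 and SLC25A30 are aligned from the first base.

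Some members lay next to each other. SLC25A41 and SLC25A23, which share exon lengths, followed each other on the minus strand of scaffold 14, with 5.40 kb between their edges. SLC25A43, an orphan carrier, and SLC25A5 followed each other on the plus strand of scaffold 45, with 9.81 kb between. SLC25A47 and SLC25A29 lay on opposite strands of scaffold 29 with their starts facing each other across 21.2 kb. For these 3 pairs, 0 other models lay between the members, and 0 protein-coding genes lay between them in RefSeq's list of mole genes, made on another assembly, MPIMG_talOcc4v2.1. Apart from these pairs and the models of SLC25A51 and SLC25A52 described below, the nearest members of different symbols were SLC25A11 and SLC25A35, 1449 kb apart on scaffold 25 with 99 models between them. The mole uncoupling proteins UCP2 and UCP3, relatives outside the naming rule, also lay on 1 strand of 1 scaffold, at 44313688 to 44316286 and 44328484 to 44333883 on scaffold 18.

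The surroundings of the members ranged widely. The number of other gene starts within 1 Mb had a median of 30 over the 51 models, against 25 over all models. It was lowest for SLC25A26, with 4, and highest for SLC25A45_copy2, with 133. SLC25A32 was followed on its 3′ side by the secreted protein gene CTHRC1 after 2 bases, and SLC25A1 lay 0.382 kb beyond the clathrin heavy chain gene CLTCL1. Only SLC25A2 overlapped another model (1 of 51, against 6.38% of all models). It lay inside the model of the protocadherin PCDHGA1, which ran from 52791679 to 52867844 on the other strand, and outside its coding exons. No member had a neighbour on the opposite strand with its start within 1 kb upstream (0 of 51, against 2.33% of all models). The start here was the edge of the gene record, and DCAF13 lay just past this limit, 1.21 kb upstream of SLC25A32 on the opposite strand.

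The copies were then compared with the multi-exon models. SLC25A3 imports the phosphate used by the ATP synthase, and also copper. Its model without a suffix was a single exon of 1086 coding bases on the minus strand of scaffold 21, at 31664189 to 31665274, with the highest score, 1518. SLC25A3_copy2 was also a single exon of 1086 coding bases, on the plus strand of scaffold 15 at 25501411 to 25502496, with a score of 1468 (96.7% of the best). SLC25A3_copy3 was the model with introns, on the plus strand of scaffold 19 at 31310236 to 31313985, with 6 coding exons of 99, 180, 182, 173, 111 and 161 bases, 906 in all, and a score of 1348 (88.8%). Both single-exon models matched bases 121 to 1203 of the target transcript, while the match of the multi-exon model began at base 303. The single-exon models were thus 1.20 times as long in coding sequence as the model with introns, and the name without a suffix had gone to one of them.

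The places of these models also differed. In the RefSeq table, the neighbours of SLC25A3 include TMPO, IKBIP and APAF1. In the deposited annotation TMPO, a nuclear lamina protein gene, lay 12.6 kb below SLC25A3_copy3, and a single-exon model named IKBIP_copy2 lay 3.78 kb above it. The IKBIP model and that of the apoptosome gene APAF1 followed further up. The single-exon SLC25A3 model lay 421 kb from a model named FKBP3_copy2 and 641 kb from one named RPL10_copy5. SLC25A3_copy2 lay 30.8 kb from HMGB1_copy6 and 272 kb from RPS15A_copy8. Of these, FKBP3_copy2 had 2 coding exons and the others 1, a number found in 24.7% of all models. Whether such copies lie beside other copies more often than other models do was not tested.

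This comparison of places was made for every model whose symbol is in RefSeq, with the 3 nearest named or unnamed protein-coding genes on each side there. Of 49 such models, 44 had at least 1 of the RefSeq neighbours within 1 Mb, and 39 had all of those that carry a model. The 5 with 0 were SLC25A3, SLC25A3_copy2, SLC25A12_copy2, SLC25A30_copy2 and SLC25A51_copy2 (10.2% of the 49, against 11.5% of all models so placed). Among single-exon models alone, 3 of 5 members had 0 such neighbours, against 62.2% of all single-exon models so placed. Without the 5 models, 2 symbols had at least 2 models and 3 models had 1 coding exon. Every one of the 42 symbols in RefSeq had a model with at least 1 RefSeq neighbour within 1 Mb. The same share over all symbols was not computed, nor that of all models with every such neighbour within 1 Mb. For SLC25A3 that was SLC25A3_copy3 and not the model without a suffix. The symbol with its highest score on a single-exon model while another model had introns was 1 of the 6 with several models, SLC25A3, against 9.8% of such symbols in the annotation.

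SLC25A30_copy2 held nearly the coding length of the 9-exon SLC25A30 model in a short span. SLC25A30 on scaffold 6, at 52913511 to 52928238, scored 1296 with 876 coding bases in 9 exons. SLC25A30_copy2 on scaffold 5, at 3746600 to 3747495, had 866 coding bases in 2 segments of 742 and 124 bases parted by 30 bases, and a score of 1222 (94.3% of the best). It matched target bases 262 to 1133, against 262 to 1137 for SLC25A30. Its coding length was no multiple of 3, and it lay between the fatty acid hydroxylase gene CYP4F3 and the olfactory receptor gene OR10H1.

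SLC25A12_copy2 was a fragment. It lay on scaffold 30 at 20528194 to 20528909 with coding segments of 42 and 380 bases and a score of 425, 13.9% of that of SLC25A12. Its match covered target bases 96 to 527, against 145 to 2129 for SLC25A12, so it began before the match of the SLC25A12 model and ended early in it. The nearest model on each side was a single-exon exonerate model without a symbol.

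The NAD carriers had a single-exon model of 915 coding bases and, on another scaffold, a pair of short models side by side. SLC25A51 was a single exon of 915 coding bases on scaffold 15, at 5225677 to 5226591, between the signalling adaptor gene SHB and DCAF10, its neighbours in RefSeq as well. SLC25A51_copy2 on scaffold 3, at 75357496 to 75358058, had 563 coding bases in 1 exon and a score of 676 against 1262, and matched target bases 781 to 1341 of the 432 to 1341 matched by SLC25A51. SLC25A52, which in humans is a close relative of SLC25A51, was modelled 67 bases away on the same minus strand, at 75358126 to 75359434, with 3 coding segments of 13, 72 and 204 bases. In the direction of transcription SLC25A52 came first and SLC25A51_copy2 after it. Neither coding length, 289 or 563 bases, was a multiple of 3. Whether SLC25A52 and SLC25A51_copy2 are parts of the same gene was not tested. The next model above them was the spindle checkpoint gene MAD2L1, 45.2 kb from SLC25A52. The symbol SLC25A52 is not one of the RefSeq table.

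**Figure D3:**
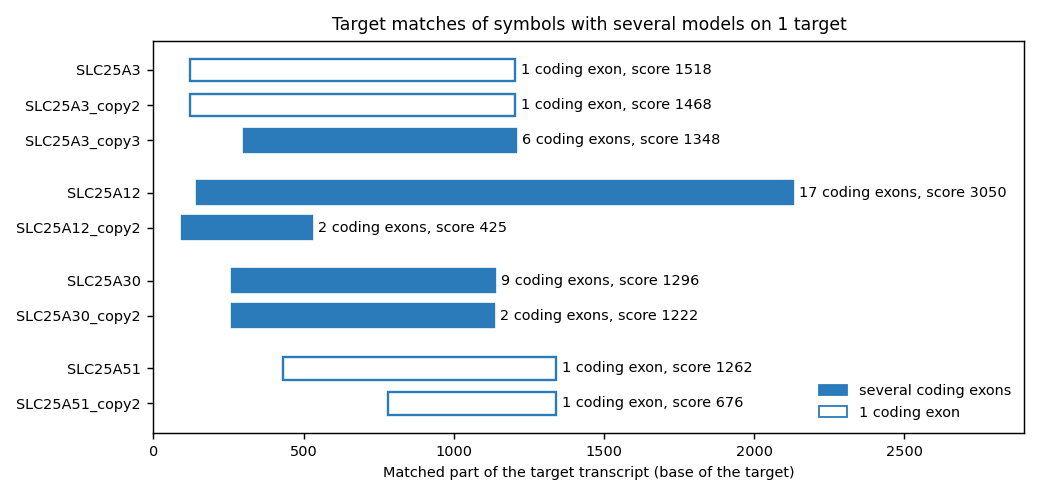
Part of the target transcript matched by each model of SLC25A3, SLC25A12, SLC25A30 and SLC25A51, in bases of the target, with filled bars for models of several coding exons and open bars for models of 1, and the deposited score beside each bar. Both single-exon SLC25A3 models match from base 121 while the 6-exon model matches from base 303, and the second models of SLC25A12 and SLC25A51 match a part.

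In SLC25A45, a carrier of little known substrate, the models of 1 symbol were neighbours. SLC25A45_copy2 and SLC25A45 lay in this order of transcription on the plus strand of scaffold 18, at 3950360 to 3951121 and 3952170 to 3953630, with 1.05 kb and 0 models between them. Their coding exons measured 249 and 222 bases in the first and 184, 645 and 269 in the second, with scores of 347 and 635. The models were matched to different target transcripts, so that the matched parts cannot be set against each other.

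Some members had 1 coding exon and no model with introns. These were SLC25A2, SLC25A51 and SLC25A53, so that, with SLC25A3, 4 of 44 best models had 1 coding exon (9.09%, against 8.63% of all symbols). SLC25A2 is a second ornithine carrier, known in humans as an intronless gene beside the protocadherin clusters. In the mole annotation it had 912 coding bases on scaffold 3 at 52817052 to 52817963, 9.91 kb from TAF7, with the protocadherin models PCDHGA1 around it and PCDHB13 57.4 kb above it. SLC25A2 is not a symbol of the RefSeq table, which lists 9 protein-coding genes between TAF7 and PCDHB1. SLC25A53 lay at 15783288 to 15784247 on scaffold 32, beside TMSB15A and FAM199X. The coding lengths of all 3 were multiples of 3, whereas 7 of the 51 models had a coding length that was not (13.7%, against 12.2% of all models). Those were SLC25A12, SLC25A12_copy2, SLC25A21, SLC25A30_copy2, SLC25A48, SLC25A51_copy2 and SLC25A52.

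Coding length also depended on how much of a model lay outside its match to the target. The match was read as the stretch of the coding sequence from its first to its last matched base. It covered a median of 95.1% of the coding bases of the best models, against 96.8% over all symbols, and had a median of 913 bases. In 5 of 44 it covered under 60% (11.4%, against 9.85% of all symbols with a match), a limit set after the values were seen. SLC25A45 had 49.0% matched, SLC25A47 49.3%, SLC25A18 57.2%, SLC25A32 59.1% and SLC25A46 59.9%. In SLC25A18 the match began at coding base 718, and 717 bases lay before it. SLC25A47, whose model of 1824 coding bases was the fourth longest of the family, had 924 outside the match. SLC25A25 and SLC25A13 had the same coding length of 2031 bases, but 741 of them lay outside the match in SLC25A25 and 17 in SLC25A13.

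**Figure D4:**
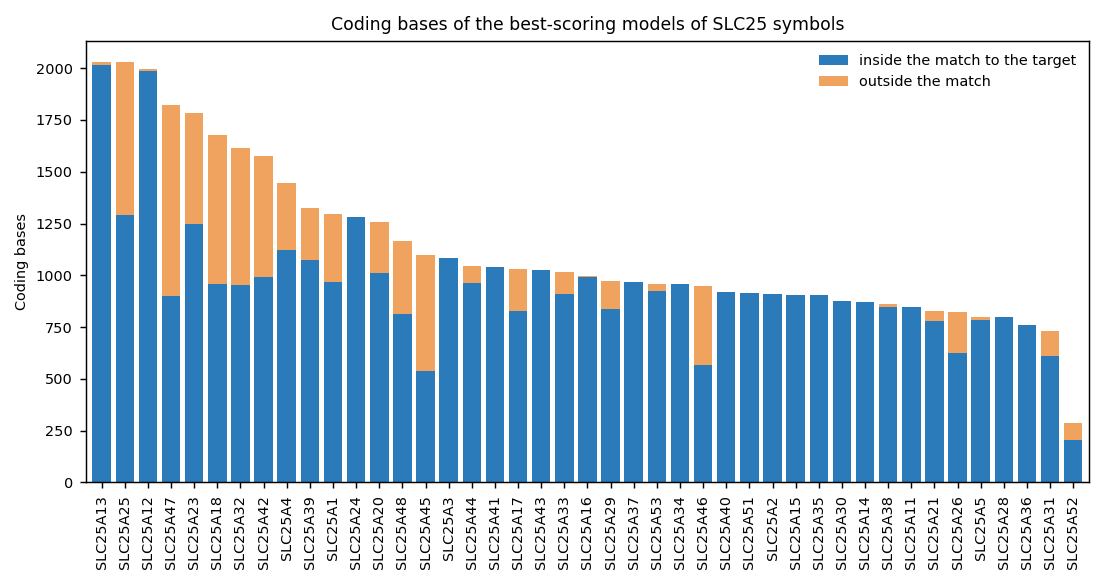
Coding bases of the best-scoring model of each of 43 of the 44 SLC25 symbols, split into those inside the stretch matched to the target (blue) and those outside it (orange), sorted by coding length. SLC25A13 and SLC25A12 are matched almost throughout, while SLC25A47, SLC25A25, SLC25A18 and SLC25A32 have 924, 741, 717 and 662 coding bases outside the match.

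Finally, 4 of the 48 human family symbols had no model under their name: SLC25A6, SLC25A10, SLC25A22 and SLC25A27. RefSeq names all 4 in the mole, so the places where they would lie could be read from their neighbours there. SLC25A6, an ADP/ATP carrier that lies in the pseudoautosomal region in humans, follows ASMTL in RefSeq. ASMTL was the last model on scaffold 24 and ended at 33956546, the last annotated base of that scaffold. On its other side in RefSeq, the nearest genes with a symbol are CRLF2, SHOX and PPP2R3B, and 0 of these 3 had a model in the deposited annotation.

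SLC25A10, the dicarboxylate carrier, lies between MRPL12 and GCGR in RefSeq. In the deposited annotation GCGR and the following 2 RefSeq genes had no model, and 37.5 kb without a model separated MRPL12 from P4HB on scaffold 28. The MRPL12 model, named for a mitochondrial ribosomal protein, had 11 coding exons and 3186 coding bases, of which only the last 475 (14.9%) matched the MRPL12 target. SLC25A22, a glutamate carrier, lies between CEND1 and PIDD1 in RefSeq. CEND1 and GATD1 also had no model, and TALDO1 and PIDD1 lay 348 bases apart on scaffold 18. The match covered 26.0% of the coding bases of TALDO1 and 73.7% of those of PIDD1.

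SLC25A27, the uncoupling protein relative of brain, stands next to TDRD6 in RefSeq. The deposited TDRD6 model, named for a germ cell Tudor protein, lay on scaffold 20 at 30859887 to 30902293 with 15 coding exons and 3243 coding bases, of which the first 2116 matched the TDRD6 target and 1127 did not. Between it and RCAN2, the next named RefSeq gene, lay 165 kb with 1 model, CYP39A1. Whether bases of the MRPL12 or TDRD6 models belong to the carriers was not tested, since no talOcc3 sequence was used here.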

How the data were processed

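The members and the lists of symbols were chosen with earlier results of these data known. The file was the gene annotation deposited for build talOcc3, with first and last bases counted from 1. Per the file's second column, models came from EVM, exonerate or ALN. Scores were deposited by the authors with each transcript and its matched part of a target. Its calculation is unstated there, so scores were set against each other within a symbol alone. Each gene had 1 transcript.

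Symbols were model names without suffixes, and LOC, model-number and gi names counted as genes without a symbol. The best model had the highest score, then most coding exons, then most coding bases. Span ran from the first to the last base of the gene record. The 48 human symbols and their substrate groups were written from general knowledge. The text names members with at least 2 models, symbols without a model, single-exon members, the ends of the ranges of length and span, neighbouring members, substrate groups, the flanks of copies and relatives. SLC25A3P1 falls outside the rule. Counts cover all members, but 1 member symbol and 1 neighbouring gene are not reported by name here. The RefSeq table gave names and order only, and a drop in start position marked a new sequence. The routines (Python 3.11.15, pandas 2.3.3) were tested on a simulated annotation with planted copies and exon runs. Alternatives changed scaffold length, coding length, suffixes, short gaps, merging and the best model.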

Additional observations from a re-analysis of the deposited data

How the results depend on the processing

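The 7 summary values were recomputed under 9 other settings and 3 more that were chosen after seeing the data, each where the setting bears on it: both other choices of the best model bear on the 3 medians alone, and span by coding bases on the median span alone. Under the 9, each value so recomputed stayed within 1.5 times (counts) or within its interval, with 50 to 51 models, 6 symbols with at least 2 models and 6 single-exon models. Leaving out the low-confidence suffix, merging overlapping models, merging separate target parts, closing gaps under 30 bases and keeping scaffolds of 1 Mb moved none of them, since no member met these conditions, so they say nothing about stability. Closing gaps under 100 bases gave 7 single-exon models (13.7%), by adding SLC25A30_copy2. Merging models of 1 symbol on 1 strand within 10 kb gave 49 models and 4 symbols with at least 2, by joining neighbouring models such as those of SLC25A45. Leaving out the 5 models away from all RefSeq neighbours gave 46 models, 2 symbols with at least 2 models and 3 single-exon models (6.52%), by construction, and left no single-exon copy for the coding-length ratio, which rests on the 2 SLC25A3 models. The median coding length ranged from 970.5 to 1006.5 bases and the median span from 13.4 to 14.1 kb. No paired analysis was possible because no library enters these values, and each tissue had 1 library, so there was no replicate to leave out. Errors of assembly and gene modelling limit these counts, and sequencing depth does not describe them.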

Other observations

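Relatives of the family outside the naming rule gave these values. MTCH2, an outer membrane insertase related to the carriers, had 4 models, and as with SLC25A3 the highest score, 1345, was on a single-exon model, of 908 coding bases on scaffold 25 at 11329598 to 11330505. MTCH2_copy2, with 13 coding exons on scaffold 18 at 11239562 to 11254848, scored 95.2% of it. MTCH2_copy3 had 3 coding exons and scored 90.9%, and MTCH2_copy4 had 1 and scored 38.5%. MTCH1 had 1 model with 13 coding exons, and UCP1, the uncoupling protein of brown fat, 1 with 5 coding exons and 900 coding bases. A single-exon model of 966 coding bases on scaffold 2, at 69718505 to 69719470, carried the pseudogene name SLC25A3P1.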
